A study of Mus musculus with 10 samples.

Results

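Solute carriers are the membrane proteins that move small molecules and ions across the plasma membrane and the membranes of lysosomes, endosomes, the Golgi and secretory vesicles. They work as facilitators, exchangers or cotransporters that draw on gradients of sodium, protons or other ions, and each family has its own range of substrates. In macrophages they are known for taking up amino acids, glucose, metals and vitamins, and for letting the products of digestion leave the lysosome. The carriers described here are the genes of the deposited table whose symbol has the form Slc, family number, letter, member number. Of 235 such symbols, 41 mitochondrial carriers (*Slc25a*) and 6 carriers of iron, glucose, lactate and cystine (*Slc40a1*, *Slc11a1*, *Slc2a1*, *Slc16a1*, *Slc16a3* and *Slc7a11*) were left out, which leaves 188 of the 17001 genes of the table. The rule used the symbol and no measured value. The members were sorted into substrate classes by gene family, with exceptions for single genes.

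Bulk RNA-seq was carried out on macrophages sorted from the hindlimb muscle of mice 4 weeks old. SkMRMs (skeletal muscle-resident macrophages; Folr2 high) came from C57BL/10 wild-type (WT) mice and gave 3 libraries, WT1 to WT3. Gal-3+ macrophages (gal-3 high, Folr2 low) came from C57BL/10ScSn-Dmdmdx/J (mdx) mice, a *Dmd* mutant model of Duchenne muscular dystrophy, and gave 4 libraries, mdx1, mdx3, mdx4 and mdx5. MDMs (monocyte-derived macrophages; sorted by CD52) came from mdx mice too and gave 3 libraries, mdx1, mdx4 and mdx5. SkMRMs were taken from WT muscle alone, so population and genotype cannot be told apart in any comparison with them. Nothing in the labels says how many mice stand behind 1 library, so that p-values measure the spread between libraries. Values below are normalized counts (reads per gene divided by 1 size factor per library), with libraries in the order just given, and ± is the SD between libraries after a level and the standard error after a log2 fold change.

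The libraries held 22395027 to 75907638 reads in genes, with SkMRM WT3 the deepest. Macrophage markers were abundant in all 10 libraries, with summed levels of 218800 to 233900 in SkMRMs, 330500 to 419300 in gal-3+ cells and 326700 to 387000 in MDMs. Of the sort markers, *Lgals3* (gal-3) RNA was 4172 in SkMRMs, 43698 in gal-3+ cells and 46239 in MDMs, so it did not set gal-3+ cells apart from MDMs. *Folr2* was 14531, 2508 and 124, and *Cd52* was 117, 1883 and 3954. Transcripts of other cells of muscle differed between the populations. The 6 tenocyte markers summed to 48180 to 90170 in SkMRMs, 2967 to 5012 in gal-3+ cells and 2705 to 3363 in MDMs, and all 6 were called lower in both mdx populations. The 8 muscle fiber markers summed to 10850 to 18550 in SkMRMs, 7562 to 9065 in gal-3+ cells and 2657 to 2877 in MDMs. The 7 smooth muscle and pericyte markers summed to 6103 to 11960, 8703 to 11530 and 2361 to 2868, and the 7 endothelial markers to 4138 to 11120, 10230 to 14340 and 4587 to 5755, in that order of populations. The 6 fibroblast markers summed to 46940 to 63020, 24170 to 36460 and 35310 to 39800, the 5 Schwann cell markers to 2211 to 4327, 3114 to 3938 and 2068 to 2410, and the 5 neutrophil markers in the table to 77.6 to 264, 368 to 532 and 1417 to 1804. Members did not all follow their sum. *Pi16*, a fibroblast marker, was 132 in SkMRMs, 128 in gal-3+ cells and 678 in MDMs, and *Csf1r*, a macrophage marker, was 60090, 52039 and 33113. In bulk libraries fewer cells of a type and less RNA per cell cannot be told apart.

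Most carriers were called in none of the comparisons between the 3 populations, and those called at the fold required here were more often lower than higher in the mdx populations. A carrier was called where its log2 fold change was at least 1 in size and its adjusted p was under 0.01 (limma on log2(normalized count + 1), adjusted over all 17001 genes). In gal-3+ cells against SkMRMs 12 carriers (6.38%) were higher, against 5.34% of all genes, and 30 (16.0%) were lower, against 11.9% of all genes. In MDMs against SkMRMs 19 (10.1%) were higher, against 8.81%, and 46 (24.5%) were lower, against 18.0%. In MDMs against gal-3+ cells 7 (3.72%) were higher, against 3.32%, and 19 (10.1%) were lower, against 8.19%. The shares called higher were close to the background, and the shares called lower stood somewhat above it. In all, 108 carriers (57.4%) were called in none of the pairs, against 65.9% of all genes. The balance depended on the fold required. With an adjusted p under 0.01 and no minimum fold, 46 carriers (24.5%) were higher in gal-3+ cells than in SkMRMs, against 18.0% of all genes, and 39 (20.7%) lower, against 17.7%. Under the same rule 50 (26.6%) were higher and 53 (28.2%) lower in MDMs than in SkMRMs, against 22.3% and 23.5%, and 19 (10.1%) were higher and 40 (21.3%) lower in MDMs than in gal-3+ cells, against 13.0% and 14.5%. Higher calls thus outnumbered lower calls in gal-3+ cells once smaller differences were counted, in the carriers as in all genes. The median log2 fold change of the carriers was 0.01, -0.23 and -0.19 in the 3 pairs, in this order, where that of all genes was -0.11, -0.17 and 0.03.

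The carriers called higher and those called lower differed in their mean level over the 10 libraries. That mean holds 3 SkMRM, 4 gal-3+ and 3 MDM libraries, so it leans towards the levels of the mdx populations. A carrier high in SkMRMs alone can therefore fall under 100, as *Slc12a5* did with 261 in SkMRMs and 86.5 over all libraries. The counts under 100 given next thus depend in part on the numbers of libraries. All 12 carriers higher in gal-3+ cells than in SkMRMs, all 19 higher in MDMs than in SkMRMs and all 7 higher in MDMs than in gal-3+ cells had a mean over the 10 libraries of at least 100 normalized counts. Among those called lower, 15 of 30, 25 of 46 and 8 of 19 lay under 100. Of all 188 carriers, 62 lay under 100. The same was not counted over all genes, so this difference is not known to be particular to the carriers. The count of 30 carriers lower in gal-3+ cells fell to 20 without SkMRM WT1 and to 20 without SkMRM WT3, while it was 22 without SkMRM WT2. Tenocyte markers moved with the carriers that were lower in both mdx populations, and their part in those calls was not tested. Of the 80 carriers called in any pair, 15 shared at least 100 exon bases with another gene, 13 of them with a gene on the opposite strand. The share of all normalized counts that fell on the carriers was 0.628% to 0.648% in SkMRMs, 0.644% to 0.674% in gal-3+ cells and 0.599% to 0.640% in MDMs.

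**Figure D1:**
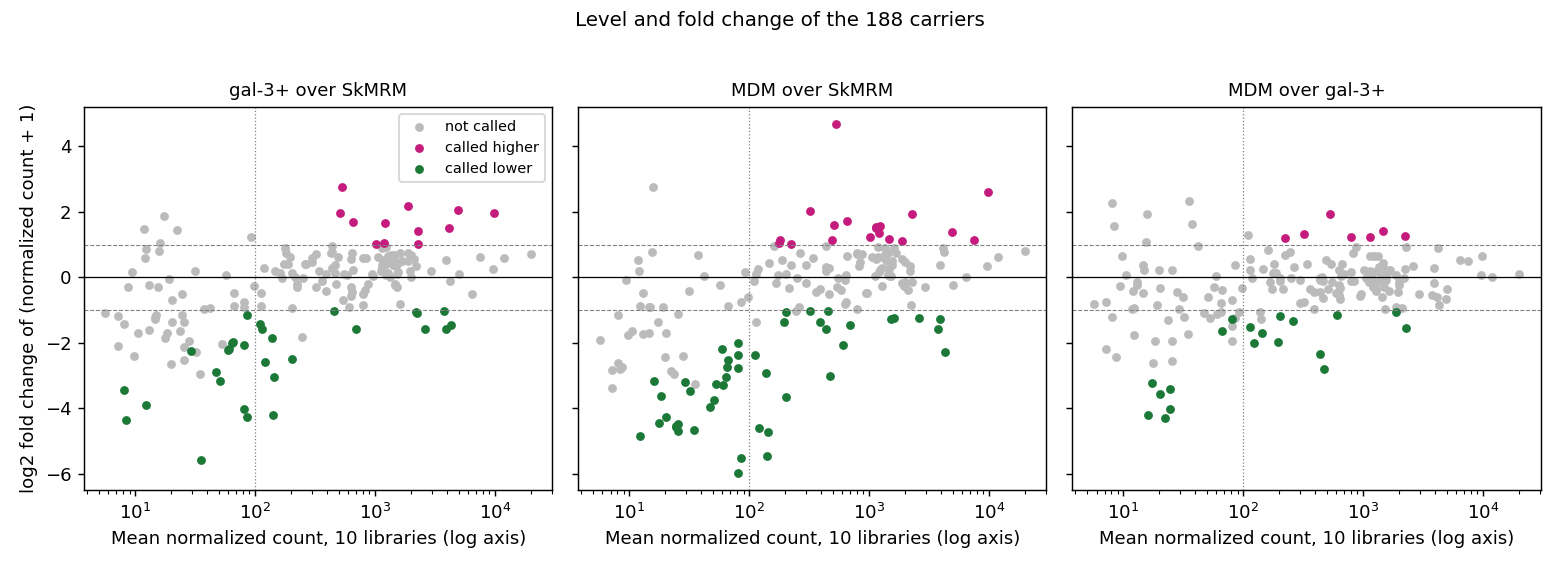
Each point is 1 of the 188 carriers, placed by its mean normalized count over 10 libraries (x, log axis) and its log2 fold change in 1 of 3 pairs of populations (y); pink points were called higher, green points lower, and the dotted line marks a mean of 100. Every pink point lies to the right of the dotted line, whereas 15 of the 30 green points in the first panel and 25 of the 46 in the second lie to its left. The mean takes in more mdx than SkMRM libraries, which moves carriers high in SkMRMs alone to the left.

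**Figure D2:**
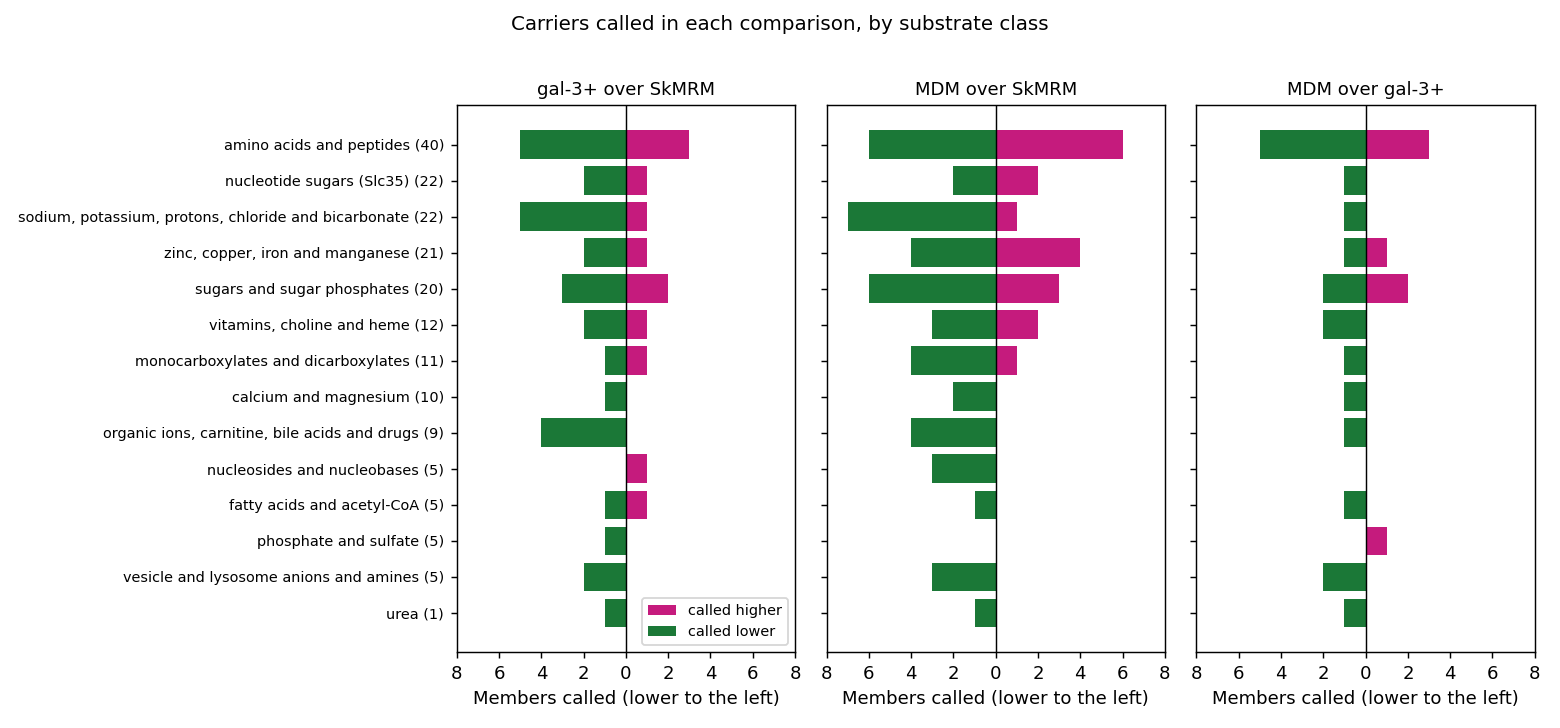
Bars give the number of carriers called higher (pink, to the right) or lower (green, to the left) in each substrate class for 3 pairs of populations, with the number of members of the class in parentheses. Amino acid carriers had 6 members higher and 6 lower in MDMs against SkMRMs, and carriers of sodium, potassium, protons, chloride and bicarbonate had 1 higher and 7 lower. Of all genes, 8.81% were higher and 18.0% lower in that pair.

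*Slc20a1* encodes PiT-1, the sodium-dependent phosphate importer that also serves retroviruses as a receptor, and it was the only carrier called lower in gal-3+ cells than in both other populations (0.532% of the carriers, against 1.02% of all genes). SkMRM libraries had 2413, 2467 and 3117 normalized counts, gal-3+ libraries 1343, 1231, 1158 and 1353, and MDM libraries 2936, 2980.3 and 3223. Every gal-3+ library lay under every library of the other populations. Its level fell from 2666 ± 392 in SkMRMs to 1271 ± 93.4 in gal-3+ cells (log2 fold change -1.06 ± 0.10, adjusted p = 1.3e-07) and stood at 3047 ± 154 in MDMs (log2 fold change 1.26 ± 0.10, adjusted p = 5.6e-08 against gal-3+ cells). MDMs and SkMRMs overlapped (log2 fold change 0.20 ± 0.10, adjusted p = 0.11). The call against SkMRMs sat close to the fold required, and the log2 fold change was -0.94 without SkMRM WT3 and -0.998 with TMM scaling, both just short of it. Its paralog *Slc20a2*, which encodes PiT-2, stood at 226 ± 24.7, 236 ± 69.6 and 179.7 ± 23.1 and was not called in any pair. *Xpr1*, the phosphate exporter, is no solute carrier by symbol and was not called either, at 2399 ± 191, 3996 ± 142 and 3392 ± 319 (log2 fold change 0.74 ± 0.08, adjusted p = 1.2e-06, for gal-3+ cells over SkMRMs). *Slc26a2*, a sulfate carrier, was not called, at 1011 ± 62.9, 1426 ± 66.0 and 1728 ± 47.0. Exons of *Slc20a1* share 452 of 5580 bases with *9830144P21Rik* and 280 with *Gm4430*, both on the opposite strand.

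Because *Slc20a1* was the carrier with this pattern, its promoter is shown, beside those of *Slc12a7*, a potassium chloride cotransporter gene that was lower in both mdx populations, and *Slc37a2*, a sugar phosphate carrier gene that was higher in both. Each runs from 250 bases before to 50 bases after a start site (RefSeq, GRCm38.p6), and capitals mark the E-box CACGTG. It is read by several factors, among them MITF, TFEB and TFE3, which are known for controlling lysosomal genes. Promoters of *Slc20a1* were listed for more than 1 start site and the first of them is given.
*Slc20a1*, chr2:129198523-129198822, plus strand: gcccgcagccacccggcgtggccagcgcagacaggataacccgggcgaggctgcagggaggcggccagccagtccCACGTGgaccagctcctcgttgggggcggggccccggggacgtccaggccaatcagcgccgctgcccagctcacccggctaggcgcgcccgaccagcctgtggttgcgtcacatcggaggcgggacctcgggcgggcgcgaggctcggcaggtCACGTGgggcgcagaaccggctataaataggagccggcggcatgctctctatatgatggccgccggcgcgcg
*Slc12a7*, chr13:73763410-73763709, plus strand: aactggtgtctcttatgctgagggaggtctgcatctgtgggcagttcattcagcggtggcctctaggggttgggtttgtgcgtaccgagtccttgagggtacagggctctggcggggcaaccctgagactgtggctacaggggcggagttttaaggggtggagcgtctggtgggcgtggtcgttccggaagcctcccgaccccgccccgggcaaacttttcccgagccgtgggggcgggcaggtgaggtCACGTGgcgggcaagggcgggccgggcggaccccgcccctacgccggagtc
*Slc37a2*, chr9:37255689-37255988, minus strand: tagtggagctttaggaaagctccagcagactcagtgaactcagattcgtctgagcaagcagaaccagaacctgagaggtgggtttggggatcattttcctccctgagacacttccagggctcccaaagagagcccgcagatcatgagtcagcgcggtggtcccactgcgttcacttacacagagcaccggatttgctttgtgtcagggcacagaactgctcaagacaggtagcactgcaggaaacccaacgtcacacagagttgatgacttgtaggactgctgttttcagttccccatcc
The *Slc20a1* promoter holds CACGTG at 175 and at 22 bases before the start. The *Slc12a7* promoter holds it across the start, from 1 base before it, and the *Slc37a2* promoter lacks it. *Slc12a7* is annotated from base 73733094 of chromosome 13 (GENCODE M21), so the start site used for it lies within the gene. CACGTG, which reads the same on both strands, was found in 7.24% of 27025 promoters of this length and at least 2 times in 0.625% of them. Among the carriers, 140 matched a promoter and 17 of these (12.1%) held the motif, 3 of them (2.14%) at least 2 times, namely *Slc20a1* and the uncalled *Slc35a5* and *Slc36a1*. It was found in 4 of 24 promoters of carriers lower in gal-3+ cells than in SkMRMs (*Slc12a7*, *Slc20a1*, *Slc35e3* and *Slc7a14*) and in none of the 10 of carriers that were higher. For MDMs against SkMRMs it was in 4 of 36 promoters of lower carriers (11.1%) and none of 12 of higher ones, and for MDMs against gal-3+ cells in 1 of 13 and 1 of 4. An AP-1 site (TGANTCA), an antioxidant response element core (TGACNNNGC) and a PU.1 core (GAGGAAGT) were searched too. They were in 6.43%, 17.1% and 4.29% of the 140 carrier promoters, against 7.93%, 12.5% and 3.28% of all promoters. In gal-3+ cells against SkMRMs the antioxidant response element core was in 0 of 24 promoters of lower and 1 of 10 of higher carriers. It was in 6 of 36 and 3 of 12 for MDMs against SkMRMs, and in 4 of 13 and 2 of 4 for MDMs against gal-3+ cells. The AP-1 site was in 2 and 1, 3 and 2, and 1 and 1 of the same groups, and the PU.1 core in none. The *Slc37a2* promoter holds the AP-1 site, which is not marked. All these matches describe the letters alone.

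**Figure D3:**
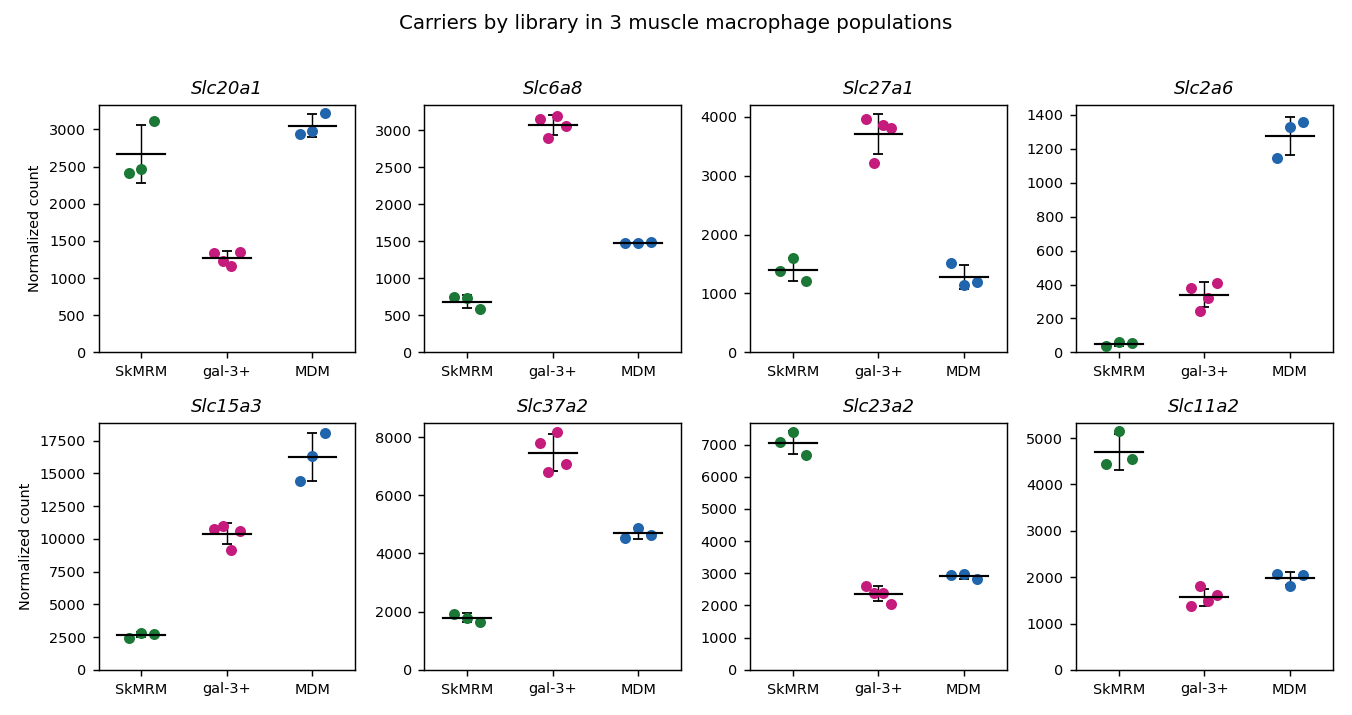
Normalized counts (y, linear from 0) of 8 carriers in each library of SkMRMs (green), gal-3+ cells (pink) and MDMs (blue); lines and bars give mean and SD over 3, 4 and 3 libraries. *Slc20a1* was low in all 4 gal-3+ libraries, *Slc6a8* and *Slc27a1* were high there, *Slc2a6* and *Slc15a3* were highest in MDMs, and *Slc23a2* and *Slc11a2* were high in SkMRMs alone.

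Carriers of amino acids and peptides formed the largest class, with 40 members. In gal-3+ cells against SkMRMs 3 were higher and 5 lower, in MDMs against SkMRMs 6 were higher and 6 lower, and in MDMs against gal-3+ cells 3 were higher and 5 lower. Over all genes the shares higher and lower were 5.34% and 11.9%, 8.81% and 18.0%, and 3.32% and 8.19%, in this order. These shares stand beside the counts of every class below, and no class was tested against them. The class medians of -0.02, -0.17 and -0.04 on the log2 scale lay near those of all genes. *Slc15a3*, which encodes a proton-coupled carrier of peptides and histidine on the lysosomal membrane and was among the most abundant carriers, was higher in both mdx populations. It was measured at 2455, 2827 and 2713 in SkMRMs, 10781, 10966, 9188 and 10602 in gal-3+ cells and 14415, 16344 and 18055 in MDMs. No library of 1 population reached into another, and MDMs lay highest. Its mean was 2665 ± 191 in SkMRMs, 10384 ± 811 in gal-3+ cells (log2 fold change 1.96 ± 0.09, adjusted p = 9e-12) and 16272 ± 1820 in MDMs (log2 fold change 2.61 ± 0.09, adjusted p = 3.9e-13). Exons of *Slc15a3* share 1541 of 5491 bases with *Tmem132a* on the opposite strand, and whether reads were counted by strand is not given in the sources used here. Its paralog *Slc15a4*, also a lysosomal peptide carrier, was not called, at 1143 ± 117, 1836 ± 279 and 1212 ± 125.

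*Slc6a8*, the creatine importer gene, was higher in gal-3+ cells than in both other populations, as was 1 more carrier, *Slc27a1* (1.06% of carriers for the pattern, against 0.606% of all genes). Normalized counts were 747, 728 and 584 in SkMRMs, 3152, 2891, 3193 and 3049.8 in gal-3+ cells and 1470.5, 1475 and 1486 in MDMs. The gal-3+ libraries lay apart from all others, MDMs were in between, and the 3 MDM libraries differed little. The log2 fold change was 2.17 ± 0.09 (adjusted p = 7.1e-12) for gal-3+ cells over SkMRMs, 1.11 ± 0.10 (adjusted p = 6.6e-08) for MDMs over SkMRMs and -1.05 ± 0.09 (adjusted p = 2.7e-07) for MDMs over gal-3+ cells. *Slc6a6*, the taurine importer gene of the same family, was among the most abundant carriers per length and was not called, at 13602 ± 215, 22187 ± 1070 and 23829 ± 803 (log2 fold change below 1 in both mdx populations over SkMRMs). Per kilobase of exon, *Slc3a2*, the heavy chain that pairs with light chains of the Slc7 family, had the highest level in each population, with 2359 normalized counts per kilobase in SkMRMs, 2828 in gal-3+ cells and 2997 in MDMs. *Slc3a2* itself was not called in any pair.

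The Slc7 light chains and cationic carriers moved in different ways. *Slc7a1* encodes CAT1, which takes up arginine and lysine. The values were 1182, 1018 and 1122 in the SkMRM libraries, 1162, 854, 729 and 1088 in the gal-3+ libraries and 2379.6, 2678 and 2503 in the MDM libraries. SkMRM and gal-3+ libraries overlapped while all MDM libraries lay above them (log2 fold change 1.42 ± 0.13, adjusted p = 4.9e-07 for MDMs over gal-3+ cells). *Slc7a6*, which exchanges cationic for neutral amino acids, rose from 146 ± 5.73 in SkMRMs to 604 ± 53.0 in MDMs (log2 fold change 2.04 ± 0.24, adjusted p = 1.3e-06), with gal-3+ cells at 251 ± 74.7. *Slc7a5*, which encodes LAT1, a carrier of large neutral amino acids such as leucine, was lowest in gal-3+ cells at 517 ± 83.5 and highest in MDMs at 1213 ± 153 (log2 fold change 1.24 ± 0.14, adjusted p = 4e-06 for this pair). *Slc7a8*, which encodes the related LAT2, was higher in MDMs than in SkMRMs, at 10444 ± 886 against 4740.5 ± 152 (log2 fold change 1.14 ± 0.09, adjusted p = 1.5e-08). *Slc7a7*, which exports arginine in exchange for neutral amino acids, was higher in gal-3+ cells than in SkMRMs, at 1437 ± 144 against 693 ± 51.2 (log2 fold change 1.05 ± 0.11, adjusted p = 5.8e-07), a call lost by a narrow margin without SkMRM WT3 (log2 fold change 0.99) or without gal-3+ mdx5 (0.99). *Slc7a2*, which encodes the cationic carrier CAT2, rose in MDMs over SkMRMs (log2 fold change 1.13 ± 0.20, adjusted p = 0.0001), and the log2 fold change was 0.98, not called, without MDM mdx4.

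**Figure D4:**
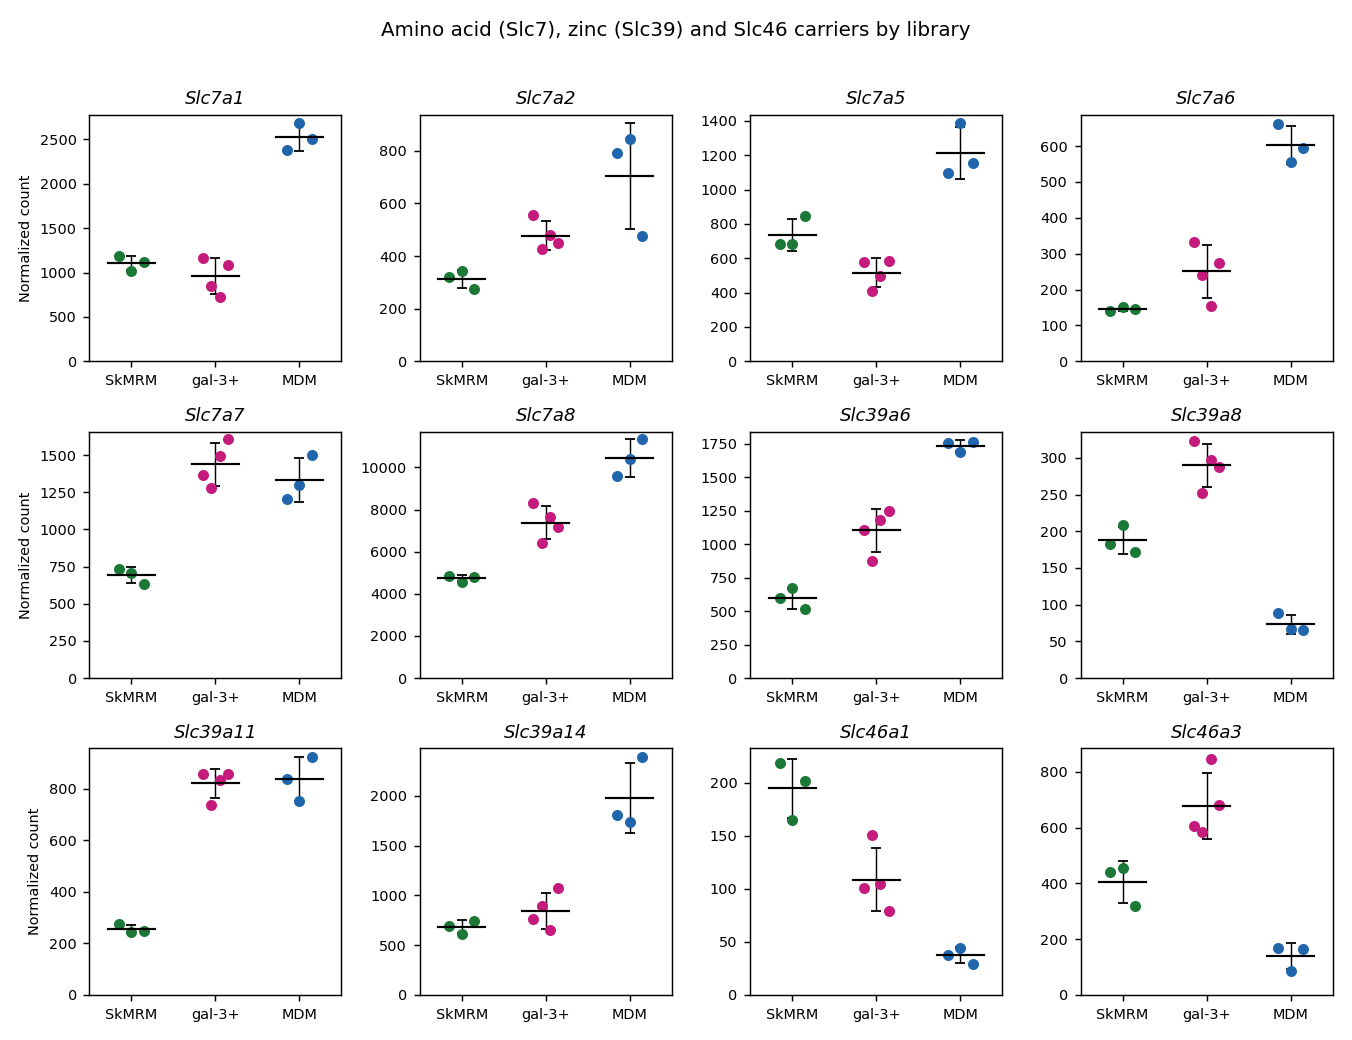
Normalized counts (y, linear from 0) of 12 carriers of the Slc7, Slc39 and Slc46 families in each library of SkMRMs (green), gal-3+ cells (pink) and MDMs (blue), with mean and SD over 3, 4 and 3 libraries. *Slc7a1*, *Slc7a6* and *Slc39a14* were highest in all 3 MDM libraries, and *Slc39a8* and *Slc46a3* were lowest there.

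Amino acid carriers that were lower in the mdx populations lay mostly at low levels. *Slc1a4*, a neutral amino acid exchanger, stood at 174, 138 and 103 in SkMRM libraries, 24.1, 17.3, 6.16 and 15.6 in gal-3+ cells and 4.74, 7.65 and 20.0 in MDMs. *Slc1a3*, a glutamate importer known from glia, was measured at 89.8, 64.5 and 55.2 in SkMRM libraries, 10.9, 21.3, 7.18 and 19.5 in gal-3+ libraries and 6.32, 2.55 and 15.3 in MDM libraries. In both, all SkMRM libraries lay above all others, and the call of *Slc1a3* in gal-3+ cells was lost without any 1 of 6 libraries, with adjusted p of 0.012 to 0.046. *Slc38a6*, an abundant carrier of the glutamine carrier family, fell from 3399.6 ± 626 to 1619 ± 327 in gal-3+ cells (log2 fold change -1.08 ± 0.15, adjusted p = 1.8e-05), and the log2 fold change was -0.93 without SkMRM WT3 and -0.98 without gal-3+ mdx5, short of the call.

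The sugar carriers (20 members) split. In gal-3+ cells against SkMRMs 2 were higher and 3 lower, in MDMs against SkMRMs 3 were higher and 6 lower, and in MDMs against gal-3+ cells 2 were higher and 2 lower. *Slc2a6* encodes GLUT6, a hexose carrier found on lysosomes of myeloid cells. Libraries held 35, 59.8 and 54.5 normalized counts of *Slc2a6* in SkMRMs, 382, 243, 323 and 410.5 in gal-3+ cells and 1148, 1327 and 1357 in MDMs. The populations did not overlap, and the order was SkMRM, gal-3+, MDM. The log2 fold change was 2.75 ± 0.22 (adjusted p = 2.1e-08) for gal-3+ cells over SkMRMs and 4.69 ± 0.24 (adjusted p = 3e-11) for MDMs over SkMRMs. This was the largest rise among the 188 carriers in both pairs, and *Slc16a3*, left out by the rule, rose more (3.10 and 5.28). *Slc37a2*, which encodes a sugar phosphate carrier of the endoplasmic reticulum known from macrophages and osteoclasts, was highest in gal-3+ cells. SkMRM libraries had 1935, 1797 and 1642 normalized counts, gal-3+ libraries 7800.2, 6787, 8172 and 7072, and MDM libraries 4529.9, 4886 and 4645. Here gal-3+ libraries lay above MDM libraries and these above SkMRM libraries (log2 fold change 2.06 ± 0.08, adjusted p = 2.3e-12 for gal-3+ cells over SkMRMs). *Slc2a3*, which encodes the glucose carrier GLUT3, was higher in MDMs than in both other populations, at 176 ± 2.3, 157 ± 32.6 and 360.2 ± 68.8. Its call against SkMRMs (log2 fold change 1.01 ± 0.23, adjusted p = 0.0012) was lost without MDM mdx4 (log2 fold change 0.86) and, by a narrow margin, without SkMRM WT3 (0.9996). *Slc2a8*, which encodes the intracellular carrier GLUT8, was lower in MDMs than in gal-3+ cells, at 138 ± 13.1 against 352 ± 90.3. *Slc5a3*, the sodium-coupled importer of myo-inositol, fell in both mdx populations, from 1268 ± 23.8 in SkMRMs to 436 ± 99.1 and 463 ± 71.9 (log2 fold change -1.57 ± 0.17, adjusted p = 7.2e-07 and log2 fold change -1.46 ± 0.18, adjusted p = 2.2e-06).

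Carriers of nucleosides and of fatty acids (5 members each) held 1 gal-3+ high member each. *Slc29a3* encodes ENT3, which lets nucleosides out of lysosomes. It was measured at 2136, 2062 and 2114 in SkMRMs, 5823, 5831, 6505 and 5629.6 in gal-3+ cells and 3951, 4166 and 3573 in MDMs. All gal-3+ libraries lay above the MDM libraries, and these above the SkMRM libraries, with a call for gal-3+ cells over SkMRMs alone (log2 fold change 1.50 ± 0.08, adjusted p = 5.7e-11). A pair of nucleoside carriers of the plasma membrane was lower in MDMs than in SkMRMs. *Slc29a1*, which encodes ENT1, was 2026 ± 163 in SkMRMs, 1645 ± 134 in gal-3+ cells and 846 ± 98.8 in MDMs (log2 fold change -1.26 ± 0.11, adjusted p = 3.6e-08 for MDMs over SkMRMs). *Slc28a2*, which encodes the sodium-coupled carrier CNT2, was 2499.5 ± 380, 1414 ± 115 and 1064 ± 146 (log2 fold change -1.23 ± 0.13, adjusted p = 2.8e-07 for MDMs over SkMRMs). Neither was called in MDMs against gal-3+ cells, and *Slc29a2*, which encodes ENT2, was not called in any pair, at 33.8 ± 20.2, 36.5 ± 14.2 and 22.6 ± 6.02. *Slc27a1* encodes FATP1, a fatty acid uptake protein with acyl-CoA synthetase activity. Normalized counts were 1385, 1608 and 1220.3 in SkMRMs, 3961, 3218, 3866 and 3820.0 in gal-3+ cells and 1518, 1144 and 1196 in MDMs. SkMRM and MDM libraries overlapped, and all 4 gal-3+ libraries lay above both. The log2 fold change was 1.41 ± 0.12 (adjusted p = 2.9e-08) for gal-3+ cells over SkMRMs and -1.54 ± 0.12 (adjusted p = 3.6e-08) for MDMs over gal-3+ cells. The calls of *Slc6a8* and *Slc27a1* in gal-3+ cells against both other populations were kept in every fit that gave both pairs.

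Carriers of sodium, potassium, protons, chloride and bicarbonate (22 members) held several of the abundant genes that were high in SkMRMs. In gal-3+ cells against SkMRMs 1 was higher and 5 lower, and in MDMs against SkMRMs 1 was higher and 7 lower. *Slc9a9* encodes NHE9, a sodium proton exchanger of endosomes. The values were 8079.8, 8220.5 and 9256 in the SkMRM libraries, 2770.1, 3330.2, 3230.1 and 3228 in the gal-3+ libraries and 1847, 1767 and 1609.8 in the MDM libraries. Each population stood apart, with SkMRMs highest and MDMs lowest (log2 fold change -1.44 ± 0.08, adjusted p = 3.7e-10 for gal-3+ cells and log2 fold change -2.29 ± 0.09, adjusted p = 1.4e-12 for MDMs, both over SkMRMs). *Slc12a7*, which encodes the potassium chloride cotransporter KCC4, fell from 6269 ± 211 to 3089 ± 196 in gal-3+ cells and 2122 ± 71.2 in MDMs. The call of *Slc12a7* in gal-3+ cells (log2 fold change -1.02 ± 0.07, adjusted p = 5.3e-09) was lost by a narrow margin without SkMRM WT3 (log2 fold change -0.999), without gal-3+ mdx5 (-0.98) and with TMM scaling (-0.96). *Slc12a2*, which encodes NKCC1, the importer of sodium, potassium and chloride, was lower in MDMs than in both other populations, at 1038 ± 223, 549 ± 77.9 and 247 ± 39.8. *Slc9a7*, which encodes NHE7, an exchanger of the trans-Golgi network, was the member that rose. Libraries held 173, 205 and 175 normalized counts of *Slc9a7* in SkMRMs, 598, 772, 779 and 733 in gal-3+ cells and 621, 601 and 464 in MDMs. All SkMRM libraries lay under all others (log2 fold change 1.96 ± 0.15, adjusted p = 1.7e-08 and log2 fold change 1.60 ± 0.16, adjusted p = 3e-07). *Slc12a5*, which encodes KCC2, known from neurons, was 232, 270.2 and 281 in SkMRMs, 27.2, 5.33, 23.6 and 6.82 in gal-3+ cells and 3.16, 12.8 and 2.35 in MDMs, and all SkMRM libraries stood far above the rest.

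Carriers of zinc, copper, iron and manganese (21 members) held paralogs that moved in opposite directions. In gal-3+ cells against SkMRMs 1 was higher and 2 lower, in MDMs against SkMRMs 4 were higher and 4 lower, and in MDMs against gal-3+ cells 1 was higher and 1 lower. *Slc39a14* encodes ZIP14, an importer of zinc, manganese and iron. SkMRM libraries had 696, 612 and 739.9 normalized counts, gal-3+ libraries 763, 894, 647 and 1071, and MDM libraries 1806, 1741 and 2388. MDM libraries lay above all others (log2 fold change 1.24 ± 0.15, adjusted p = 8.4e-06 for MDMs over gal-3+ cells). *Slc39a8* encodes ZIP8, the closely related importer. It was measured at 183, 208 and 172 in SkMRMs, 323, 252, 298 and 288 in gal-3+ cells and 88.5, 66.3 and 65.8 in MDMs. It ran the other way, with MDMs under SkMRMs and these under gal-3+ cells (log2 fold change -1.97 ± 0.22, adjusted p = 2.8e-06 for MDMs over gal-3+ cells). *Slc39a11*, which encodes ZIP11, was higher in both mdx populations, at 255 ± 16.5 in SkMRMs, 821 ± 57.3 in gal-3+ cells and 838 ± 84.4 in MDMs (log2 fold change 1.68 ± 0.12, adjusted p = 6.5e-09 and log2 fold change 1.71 ± 0.13, adjusted p = 7.9e-09). *Slc39a6*, which encodes ZIP6, was called higher in MDMs over SkMRMs (log2 fold change 1.55 ± 0.13, adjusted p = 3.2e-08). *Slc11a2* encodes DMT1, which carries ferrous iron out of endosomes. Normalized counts were 4434, 5145 and 4538 in SkMRMs, 1368, 1802, 1485 and 1614 in gal-3+ cells and 2065, 1814 and 2041 in MDMs. All SkMRM libraries lay above all others, and the log2 fold change was -1.59 ± 0.10 (adjusted p = 6.8e-10) in gal-3+ cells and -1.25 ± 0.10 (adjusted p = 2.2e-08) in MDMs. *Slc30a4*, which encodes ZnT4, an exporter of zinc into vesicles, was lower in MDMs than in SkMRMs, at 209.7 ± 21.5 against 539.5 ± 43.0 (log2 fold change -1.36 ± 0.21, adjusted p = 2.7e-05). *Slc39a1*, which encodes ZIP1, was not called, at 3073 ± 163, 4485 ± 282 and 4015 ± 157.

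Carriers of vitamins, choline and heme (12 members) had 1 member higher and 2 lower in gal-3+ cells against SkMRMs, 2 higher and 3 lower in MDMs against SkMRMs, and 2 lower in MDMs against gal-3+ cells. *Slc23a2* encodes SVCT2, the sodium-coupled importer of vitamin C. The values were 7076, 7400.4 and 6683 in the SkMRM libraries, 2614, 2402, 2398 and 2055 in the gal-3+ libraries and 2938, 2966 and 2816 in the MDM libraries. SkMRM libraries stood well above the others, and gal-3+ cells were lowest (log2 fold change -1.58 ± 0.08, adjusted p = 7.9e-11 for gal-3+ cells over SkMRMs, with a call in MDMs too). *Slc44a2*, a choline carrier of the plasma membrane and mitochondria, rose from 529 ± 111 in SkMRMs to 1652 ± 179 in gal-3+ cells and 1335 ± 129 in MDMs (log2 fold change 1.66 ± 0.14, adjusted p = 3.1e-08 and log2 fold change 1.35 ± 0.15, adjusted p = 5.5e-07). *Slc46a3* encodes a lysosomal carrier related to the folate carrier. Libraries held 442, 454 and 318 normalized counts of *Slc46a3* in SkMRMs, 606, 584, 847 and 679.6 in gal-3+ cells and 169, 85.5 and 163 in MDMs. MDM libraries lay under all others (log2 fold change -2.33 ± 0.23, adjusted p = 7e-07 for MDMs over gal-3+ cells). *Slc46a1*, which encodes the proton-coupled folate carrier, was also lower in MDMs than in both other populations, at 195 ± 27.9, 109 ± 30.1 and 37.3 ± 7.67. Its call against gal-3+ cells was lost with the mdx number fitted as a replicate block (log2 fold change -1.33, adjusted p = 0.029). *Slc48a1*, which carries heme out of the phagolysosome, followed the order of *Slc46a3* with differences short of the required fold, at 1901 ± 236, 2766 ± 166 and 1440.3 ± 94.3 (log2 fold change -0.94 ± 0.09, adjusted p = 9.1e-07 for MDMs over gal-3+ cells).

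Carriers of monocarboxylates and dicarboxylates (11 members) had 1 member higher and 4 lower in MDMs against SkMRMs. *Slc16a10* is placed here by family, although it carries aromatic amino acids. SkMRM libraries had 944, 1036 and 1029 normalized counts, gal-3+ libraries 2231, 1756, 2087 and 2096, and MDM libraries 3528, 4357 and 3741. The populations did not overlap, with MDMs highest (log2 fold change 1.94 ± 0.10, adjusted p = 7.8e-11 for MDMs over SkMRMs), and the call in gal-3+ cells (log2 fold change 1.02 ± 0.10, adjusted p = 2.1e-07) was lost by a narrow margin without SkMRM WT1 or gal-3+ mdx1 (log2 fold change 0.98 in each). *Slc13a3* encodes NaDC3, a sodium-coupled importer of succinate and other dicarboxylates. It was measured at 615, 694 and 754 in SkMRMs, 477, 587, 589 and 760.5 in gal-3+ cells and 94.9, 98.2 and 63.4 in MDMs. SkMRM and gal-3+ libraries overlapped while all MDM libraries lay far below them (log2 fold change -3.01 ± 0.21, adjusted p = 1.8e-09 against SkMRMs and log2 fold change -2.81 ± 0.19, adjusted p = 1.3e-08 against gal-3+ cells).

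Several small classes held carriers that were far higher in SkMRM libraries than in the rest. *Slc18b1* encodes a vesicular polyamine carrier. Normalized counts were 430.4, 432 and 347 in SkMRMs, 66.9, 46.7, 45.1 and 38 in gal-3+ cells and 11.1, 15.3 and 16.4 in MDMs. No population overlapped another (log2 fold change -3.03 ± 0.36, adjusted p = 2.3e-06 for gal-3+ cells and log2 fold change -4.74 ± 0.38, adjusted p = 1.3e-08 for MDMs, both over SkMRMs). *Slc18a1*, which encodes the vesicular monoamine carrier VMAT1, was 197, 174 and 183 in SkMRMs, 59.9, 38.7, 32.8 and 45.8 in gal-3+ cells and 37.9, 19.1 and 24.7 in MDMs. *Slc8a2*, which encodes the sodium calcium exchanger NCX2, stood at 418 ± 14.2, 27.7 ± 15.9 and 16.8 ± 21.3, with every SkMRM library above all others. Its paralog *Slc8a1*, which encodes NCX1, was not called, at 2928 ± 232, 3389 ± 375 and 2389 ± 276. *Slc14a1*, which encodes the urea carrier UT-B, fell from 516 ± 94.3 in SkMRMs to 91 ± 14.1 in gal-3+ cells (log2 fold change -2.48 ± 0.33, adjusted p = 8.5e-06) and 42.9 ± 19.5 in MDMs (log2 fold change -3.66 ± 0.35, adjusted p = 1.2e-07). Its lower call in MDMs against gal-3+ cells (log2 fold change -1.17, adjusted p = 0.009) was lost without 9 of the 10 libraries in turn, all but MDM mdx1, with adjusted p of 0.013 to 0.049. Among carriers of organic ions (9 members) 4 were lower in each mdx population than in SkMRMs. Of all genes, 11.9% were lower in gal-3+ cells and 18.0% in MDMs, and the class was not tested against these shares. *Slc10a6*, which encodes an importer of sulfated steroids, stood at 304 ± 52.7, 87 ± 36.3 and 40.7 ± 15.4.

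The Slc35 family (22 members), which carries nucleotide sugars into the Golgi and endoplasmic reticulum and holds members with no known substrate, had medians above those of all genes, at 0.40 in gal-3+ cells and 0.27 in MDMs, both over SkMRMs, and few calls. *Slc35b1*, an ATP importer of the endoplasmic reticulum, rose from 631 ± 49.6 in SkMRMs to 1894 ± 227 in MDMs (log2 fold change 1.58 ± 0.11, adjusted p = 2.4e-09), with gal-3+ cells at 1187 ± 64.5. *Slc35c2*, a Golgi protein linked to GDP-fucose transport, rose in gal-3+ cells (log2 fold change 1.02 ± 0.15, adjusted p = 1.9e-05) and in MDMs (log2 fold change 1.24 ± 0.16, adjusted p = 3.3e-06) over SkMRMs, and the first call was lost without SkMRM WT3 (log2 fold change 0.90) and without gal-3+ mdx4 (0.95).

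Carriers were grouped by which population stood apart from both others, with the calls of the pairs that share its libraries. SkMRMs were higher than both others for 22 carriers (11.7%, against 7.67% of all genes) and lower for 9 (4.79%, against 4.05%). With 1 library left out, the SkMRM high carriers numbered 17 (without SkMRM WT1 or SkMRM WT3) to 26 (without MDM mdx5). MDMs were higher than both others for 5 (2.66%, against 1.61%), namely *Slc2a3*, *Slc2a6*, *Slc39a14*, *Slc7a1* and *Slc7a6*, and lower for 14 (7.45%, against 6.52%). With no minimum fold the order of the SkMRM counts turned, with 29 higher (15.4%, against 11.8%) and 36 lower (19.1%, against 14.6%). At the fold required, these shares lay near those of all genes, and that of SkMRM high carriers exceeded it most in percentage points. Summed tenocyte, fibroblast and muscle fiber markers were highest in the libraries of SkMRMs, beside the 22 SkMRM high carriers. Of them, 6 of 6, 3 of 6 and 4 of 8 were called lower in gal-3+ cells and 6 of 6, 1 of 6 and 8 of 8 in MDMs. The fibroblast marker *Pi16* went the other way, called higher in MDMs than in both other populations (log2 fold change 2.39 over each). Beside the 14 MDM low carriers, 8 of 8 muscle fiber, 7 of 7 pericyte, 4 of 5 Schwann cell and 2 of 7 endothelial markers were called lower in MDMs than in SkMRMs, and 7, 6, 4 and 4 of them lower than in gal-3+ cells. Beside the 5 MDM high carriers, 2 of 5 neutrophil markers were called higher in MDMs against each other population. The part of other cells in these calls was not tested. Of the 14 MDM low carriers, 8 had a mean of at least 100 normalized counts, and the count was 9 without MDM mdx5.

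The carriers left out and other genes of transport were counted for comparison. Over all genes the shares higher and lower were 5.34% and 11.9%, 8.81% and 18.0%, and 3.32% and 8.19%, in the order of pairs used next. Of the 41 mitochondrial *Slc25a* carriers 3 were higher and 3 lower in gal-3+ cells than in SkMRMs, 3 were higher and 4 lower in MDMs than in SkMRMs, and 1 was lower in MDMs than in gal-3+ cells. Of 18 partners of carriers and other transport genes 1 was higher and 2 lower, 2 were higher and 5 lower, and 2 were higher and 3 lower, in the same order of pairs. Of the 6 carriers of iron, glucose, lactate and cystine 4 were higher and 1 lower, 4 were higher and 1 lower, and 3 were higher and 1 lower. *Emb*, which encodes a chaperone of monocarboxylate carriers, rose in the order SkMRM, gal-3+ cells, MDM, at 1412 ± 188, 2966 ± 222 and 6635 ± 278. *Slco2b1*, which encodes an organic anion carrier named outside the rule used here, stood at 6961 ± 232, 3576 ± 188 and 289 ± 41.1, with calls for MDMs against both others.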

How the data were processed

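Total RNA of 10 sorted macrophage libraries was made into stranded libraries and sequenced. Per the methods and the submitters' processing notes, reads were aligned with TopHat2 2.0.14 to mm10, counted per GENCODE M9 gene with HTSeq 1.99.2 and normalized with DESeq2 1.28.1. The deposited values are a signal, read counts that the authors divided by 1 size factor per library, and whole reads were recovered from all of them (within 0.001). The strand setting of counting is not given in the sources used here. Another 18 columns of the authors' comparisons (log2 fold changes, standard errors, Wald statistics and p-values) were not used.

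All 10 libraries were fitted together with limma 3.58.1 (R 4.3.3) on log2(normalized count + 1), with 7 residual degrees of freedom and Benjamini-Hochberg adjustment over 17001 genes; fold changes of low genes are understated on this scale. Every gene of the table held at least 10 normalized counts in at least 3 libraries, so that this minimum removed none. The fit was tested on simulated data. edgeR 4.0.16, DESeq2 1.42.0, TMM scaling, other pseudocounts, minimums and thresholds, and leaving out each library were the alternatives. Exon lengths came from GENCODE M21 (GRCm38).

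The members, lists and tests were chosen with earlier results of these data known. Named were *Slc20a1*, the 6 largest rises and falls per pair among called carriers whose populations did not overlap and whose mean reached 100, the 2 most abundant members of each class with its largest change, and paralogs called in opposite directions. From these, examples are given, and any other carrier was named after its values were seen.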

Additional observations from a re-analysis of the deposited data

Results flagged for a closer look

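Among the 67 carriers named by rule, 6 had 1 gal-3+ library set apart from the other 3 by Dixon's criterion, where chance sets about 1 in 20 groups apart. The highest library held 112 normalized counts of *Slc14a1* (urea), 12.4 of *Slc16a14* (monocarboxylate family), 68.0 of *Slc39a12* (zinc) and 46.7 of *Slc6a17* (neutral amino acids). The lowest library held 1243 normalized counts of *Slc28a2* (nucleosides), and *Slc16a9* (monocarboxylate family) was at 0 in its lowest library. Groups of 3 libraries were not tested in this way.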

How the results depend on the processing

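No called fold change of the 67 carriers named by rule changed sign in the alternatives run. The balance of higher and lower calls did turn without a minimum fold: 46 carriers were higher and 39 lower in gal-3+ cells than in SkMRMs (12 and 30 with it), and 29 were higher and 36 lower in SkMRMs than in both others (22 and 9 with it). Under that rule 50 were higher and 53 lower in MDMs than in SkMRMs, 19 higher and 40 lower in MDMs than in gal-3+ cells, 9 higher and 4 lower in gal-3+ cells than in both others, and 14 higher and 23 lower in MDMs than in both others. The smaller differences that this rule adds are what changed the balance. With only the 2 populations fitted, 12 carriers were lower in MDMs than in gal-3+ cells and 7 lower in MDMs than in both others. Carriers lower in gal-3+ cells than in both others numbered 0 with TMM scaling, 3 with DESeq2, 2 at an adjusted p under 0.05, and 0 (without SkMRM WT3) to 3 (without gal-3+ mdx3) with 1 library left out. With 1 library left out, 9 to 16 were lower in MDMs than in both others. Over all genes, same-numbered mdx libraries did not deviate together (r of -0.0279, 0.0102 and 0.0253), and the numbers were not taken to pair them. That correlation cannot exclude that they share a mouse, since single genes can still move together. *Slc15a2* was low in both mdx4 libraries. It was 4.10 in gal-3+ mdx4 against 163 to 296 in the other gal-3+ libraries, and 23.0 in MDM mdx4 against 352 and 417 in the other MDM libraries. With the mdx number fitted as a replicate block, 9 carriers were lower and 6 higher in MDMs than in gal-3+ cells, against 19 and 7 without it. *Slc2a3*, *Slc14a1*, *Slc18b1* and *Slc46a1* were among those that lost this call (adjusted p of 0.012 to 0.1 in limma). TMM scaling moved the median of all genes by 0.0623, 0.0219 and -0.0404 on the log2 scale. Having no minimum gave the values reported, since no gene lay under it. Carriers under 100 normalized counts rest on few reads, and differences there that were not called may not be detectable at this depth.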
